A study of Mus musculus with 6 samples.

Results

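The genes described here are 5 enzymes and maturation factors with which the intestinal epithelium makes oxidants and nitric oxide: Nos2, Nox1, Duox2, Duoxa2 and Duoxa1. They were chosen by name, and all 5 were found among the 21950 gene symbols listed in both deposited columns. Ileum was taken from C57BL/6 mice aged 24 weeks, 3 wild type and 3 TLR4ΔIEC, the latter carrying a conditional knockout of Toll-like receptor 4 in intestinal epithelial cells. No source used here names the promoter that drives the deletion, and cells outside the epithelium keep the receptor. The deposited data are 1 column of average read coverage per genotype, each shared by its 3 mice. Every value below is therefore that of a pooled column: no spread between mice can be given, no difference was tested, and a difference is one between 2 pools, without a replicate check. The sample descriptions assign each genotype to its own pooled column, so genotype and anything else that differed between the 2 pools cannot be told apart.

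Inducible nitric oxide synthase (Nos2) makes nitric oxide from arginine, with tetrahydrobiopterin as a cofactor, and is switched on in epithelium and in macrophages by cytokines and bacterial products. Nox1 is an NADPH oxidase of the intestinal epithelium, best known from the colon. It works in a membrane complex with p22phox (Cyba), the organiser Noxo1, the activator Noxa1 and the GTPase Rac1, and releases superoxide. Duox2 is the dual oxidase of the gut surface. It releases hydrogen peroxide into the lumen and reaches the apical membrane only with its maturation factor Duoxa2, while Duox1 has Duoxa1 as its own partner. Bacterial products and cytokines are known inducers of Duox2 and Duoxa2 in the intestine.

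The Duox and Duoxa genes lie side by side on chromosome 2 (GRCm38) within 68.7 kb. Duox2 (122279247 to 122298449, minus strand) and Duoxa2 (122298900 to 122302885, plus strand) point away from each other across 450 bases. Duoxa1 (122302191 to 122313730, minus strand) overlaps the end of Duoxa2 by 695 bases on the opposite strand, and Duox1 follows at 122315672 to 122347972 on the plus strand. Nos2 lies on chromosome 11 (78920787 to 78960254, plus strand) and Nox1 on chromosome X (134086421 to 134221956, minus strand). The sequence upstream of the start site is shown for the divergent Duoxa2 and Duox2 pair, which were well covered and differed little between the columns, and for Nox1, which had the highest ratio of the members. Each is the 250 bases before the RefSeq start (GRCm38.p6), read 5′ to 3′ on the gene's own strand. For Nox1 and Duox2 the RefSeq start lies inside the GENCODE gene span given above, which includes longer transcripts, so these stretches overlap that span. Capitals mark the motif matches described next.
Duoxa2 upstream, chr2:122298650-122298899, plus strand: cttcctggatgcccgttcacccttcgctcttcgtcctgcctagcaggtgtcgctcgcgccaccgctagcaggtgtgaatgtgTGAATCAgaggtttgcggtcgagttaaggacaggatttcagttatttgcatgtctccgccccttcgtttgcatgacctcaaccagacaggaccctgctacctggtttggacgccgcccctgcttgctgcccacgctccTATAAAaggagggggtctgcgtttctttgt
Duox2 upstream, chr2:122298228-122298477, minus strand: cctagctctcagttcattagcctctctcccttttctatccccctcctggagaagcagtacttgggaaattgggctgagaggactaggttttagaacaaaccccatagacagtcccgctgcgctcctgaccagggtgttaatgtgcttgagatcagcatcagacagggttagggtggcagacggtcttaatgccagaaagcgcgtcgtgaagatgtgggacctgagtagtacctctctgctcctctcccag
Nox1 upstream, chrX:134111855-134112104, minus strand: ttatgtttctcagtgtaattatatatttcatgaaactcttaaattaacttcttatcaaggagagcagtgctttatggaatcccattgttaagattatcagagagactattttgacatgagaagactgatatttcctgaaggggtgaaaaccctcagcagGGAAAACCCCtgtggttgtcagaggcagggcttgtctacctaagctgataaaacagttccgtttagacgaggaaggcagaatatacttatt

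RefSeq windows of 300 bases (250 before and 50 after the start) were matched for 4 of the 5 members, all but Nos2. They were searched on both strands for the TATA box (spelled TATAAA), the STAT site of the interferon response (TTCNNNGAA), the AP-1 site (TGANTCA), the site of GATA factors (AGATAA) and the NF-κB motif. Duoxa2 held TATAAA 30 bases before its start, a match found in 13.6% of all 32851 windows. It also held TGAATCA 168 bases before its start, a match to the AP-1 spelling searched, which leaves the middle base free. That loose spelling was found in 7.81% of windows. Nox1 held a match to the NF-κB motif on the other strand, GGAAAACCCC as read here, 91 bases before its start (8.46% of windows). No match overlapped one of another motif, and the AP-1 match was found on both strands at the same bases. The windows of Duox2 and Duoxa1 held none of the 5 motifs, which says only that these letters are not in those windows. The Nox1 window was poor in G and C (38%, with 2 CG pairs) beside 55.3% in Duox2 and 56.7% in Duoxa2. The quartiles over all windows were 45.7% and 61.7%.

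Nos2 and Nox1 were higher in the TLR4ΔIEC column, while Duox2 and Duoxa2 were nearly level and Duoxa1 was barely covered in both. Coverage was put on a common scale in units, with a mean total of 1000000 per column. Log2 ratios, TLR4ΔIEC over wild type, were taken of units plus 1. Only 3 members, Nos2, Duox2 and Duoxa2, reached a mean of 5 units, the level above which 8888 genes were kept. Nos2 alone of these differed by 2-fold. As background, 1.29% of all genes kept were higher by 2-fold or more in the TLR4ΔIEC column and 2.79% were lower by as much, around a median log2 ratio of 0.03. A ratio above 0 was found in 52.7% of them.

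**Figure D1:**
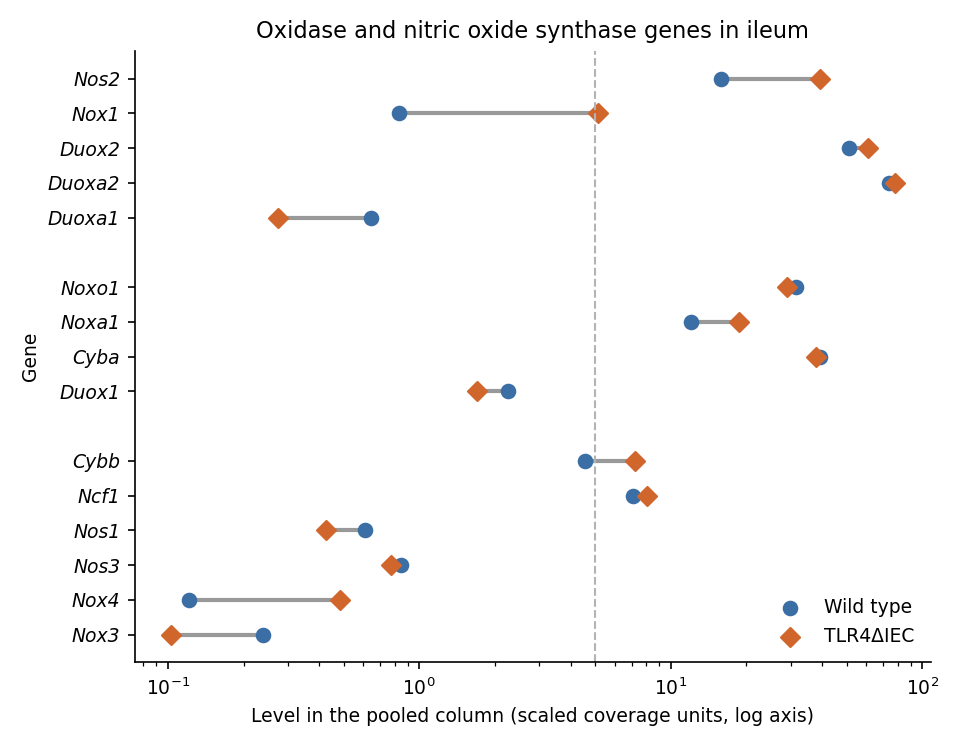
Level of each gene in the wild type (circles) and TLR4ΔIEC (diamonds) pools, in scaled coverage units on a log axis. The dashed line marks 5 units, and the gene groups from top to bottom are the members, their direct partners, and other oxidases and synthases. Nos2 (15.8 and 39.4 units) and Nox1 (0.829 and 5.14 units) have the diamond well to the right of the circle, while those of Duox2 and Duoxa2 nearly coincide.

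Nos2 was covered by 10.8 reads per base in wild type against 28.2 in TLR4ΔIEC, which is 15.8 and 39.4 units. That is 2.50-fold higher, a log2 ratio of 1.27. The averages rested on 42943 and 112645 bases of reads over 3990 bases, a length taken as common to both columns, so Nos2 was well covered in both. By level, Nos2 ranked 4446 of 21950 genes in wild type and 2050 in TLR4ΔIEC. Of 3371 genes with a mean within 2-fold of its own, 23 including Nos2 itself had a ratio at least as high (0.682%). The other nitric oxide synthases were far lower and did not share the difference: the endothelial Nos3 was at 0.845 units in wild type against 0.772 in TLR4ΔIEC, and the neuronal Nos1 was at 0.608 and 0.427. Nos2 was thus the most abundant synthase in both columns. Its nearest protein-coding neighbour, Lgals9 (galectin-9), begins 2719 bases beyond its end on the opposite strand and was at 144 and 211 units (log2 ratio 0.54). Lyrm9, on the other side, was at 3.30 and 2.20 units.

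Immune cell markers moved with Nos2. Of 11 macrophage symbols listed, 6 reached 5 units and 5 of these had ratios above 0. The summed level of the 10 found in both columns was 920.3 units in wild type against 1708 in TLR4ΔIEC, or 230.2 and 319 without Lyz2. The defining markers were weak: F4/80 (Emr1) was at 3.36 and 5.12 units and Cd68 at 4.08 and 4.88. T cell and intraepithelial lymphocyte markers summed to 107 and 279 units, with all 6 measured above 0. No neutrophil marker reached 5 units, and their sum was 9.14 and 4.51. B and plasma cell markers summed to 405 and 979 units and smooth muscle markers to 890.1 and 1045. General epithelial markers summed to 6280.2 and 5914 units. The sum of ileal enterocyte markers, described with Nox1, was lower in TLR4ΔIEC, mostly through Apoa1. In whole tissue, more cells of a type and more RNA per cell cannot be told apart, and the part of macrophages or lymphocytes in the Nos2 difference was not tested.

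Nox1 was covered by 0.566 reads per base in wild type against 3.68 in TLR4ΔIEC, which is 0.829 and 5.14 units. This is 6.20-fold higher in units, and 1.75 on the log2(units + 1) scale, which understates differences at such low levels. The mean was 2.99 units, so Nox1 was left out of the counts over genes kept. Of 4325 genes with a mean within 2-fold of that of Nox1, 1.94% were at least 2-fold higher, and 18 including Nox1 had a ratio at least as high (0.416%). The value was carried by few reads: 1125 bases over a length of 1987 in wild type, and 9435 bases over 2563 in TLR4ΔIEC. The longer length equals the 13 exons of the longest GENCODE transcript, and the shorter is 77.5% of it. The averages thus did not run over the same bases. Spread over 2563 bases, the wild type value was 0.439 in coverage, and the difference 8.0-fold (log2 ratio 1.90). The annotated locus spans 2 weakly covered genes, Xkrx (0.323 and 0.218 units) and, on the opposite strand, Arl13a (0.173 and 0.144), and overlaps Cstf2 on the opposite strand by 399 bases. Cstf2, an mRNA 3′ end processing factor, was at 5.81 and 6.95 units (log2 ratio 0.22), and no source used here states whether the authors' coverage used strand.

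The partners of Nox1 were more abundant than the oxidase and did not follow it. Noxa1, the activator, came closest, at 8.21 reads per base in wild type against 13.4 in TLR4ΔIEC (12.0 and 18.7 units, log2 ratio 0.59). Noxo1, the organiser, was at 31.5 and 29.0 units (-0.12), Cyba at 39.4 and 37.9 (-0.05), and Rac1 at 197 and 198 (0.00). None of these 4 differed by 2-fold. Cyba and Rac1 also serve other oxidases and other cells.

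Since Nox1 is known from the large intestine, a list of genes chosen for the epithelium there was set beside it. Car1 (0.140 units in wild type against 0.176 in TLR4ΔIEC) and the water channel Aqp8 (0.107 and 0.127) were near 0 in both columns, as was Slc37a2 (0.948 and 0.907). The other 4 genes of that list, Car4, Slc26a3, Ang4 and B4galnt2, were measured in the ileum of both genotypes and had ratios of 0.23 to 0.35. Being measured in ileum, these 4 do not single out the large intestine. The summed level of that list was 2435 units in wild type against 3074 in TLR4ΔIEC, of which Ang4 alone made up 2154 and 2743. The sum is therefore no measure of large intestine epithelium. The part of this list in the Nox1 difference was not tested. Of 7 ileal enterocyte markers, all measured, 6 had ratios below 0 (median -0.56), with Fabp6 and Slc51b only at -0.17. The list summed to 27125 and 17788 units, and Apoa1 alone (10533 and 3154 units) made up most of that difference. The ileal bile acid genes Fabp6 (15333 and 13619 units) and Slc10a2 (92.9 and 93.6) were abundant in both columns, Slc51a was at -0.56, Fgf15 at -0.63 and Cubn at -0.62, and Apoa1 was lower by over 2-fold (-1.74).

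**Figure D2:**
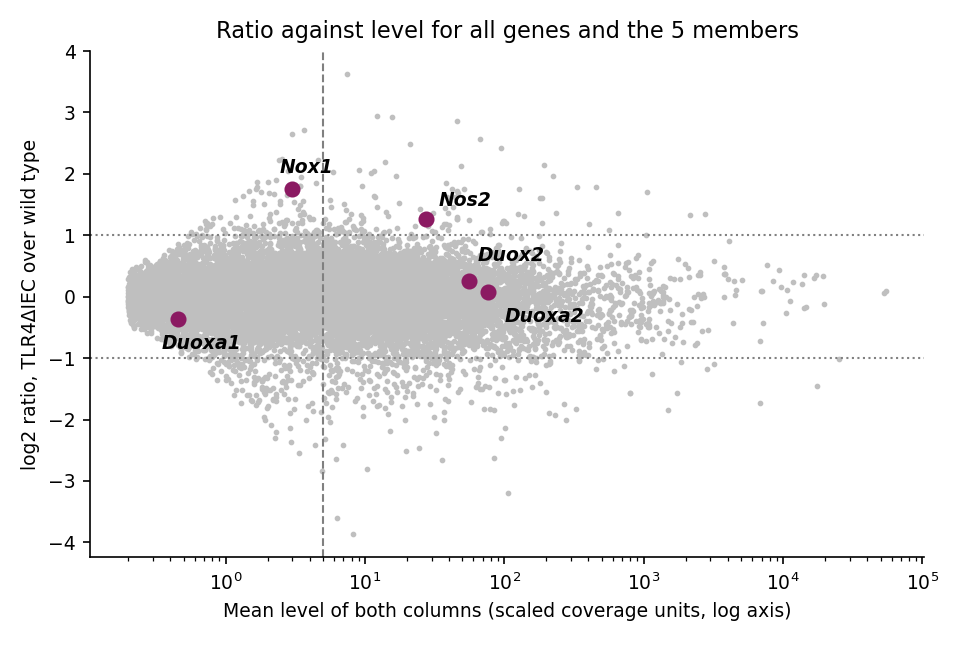
Log2 ratio of TLR4ΔIEC over wild type against the mean level of both columns (scaled units, log axis) for genes averaging at least 0.2 units, with the 5 members in colour. The dashed line marks 5 units and the dotted lines 2-fold. Nos2 (1.27) and Nox1 (1.75) lie above the upper dotted line, Nox1 left of the dashed line, and Duox2 (0.25) and Duoxa2 (0.07) lie within the bulk of genes at their level.

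Duox2 was the most abundant oxidase of the ileum in both columns and differed little between them. Its coverage was 34.8 in wild type against 43.4 in TLR4ΔIEC, or 51.0 and 60.7 units, a log2 ratio of 0.25. The averages rested on 158695 and 197764 bases of reads over 4554 bases, if the length recovered is the true one; the longest GENCODE transcript has 6112. Of 1979 genes at a like level, 478 including Duox2 (24.2%) had a ratio at least as high. Duoxa2 was at a coverage of 50.4 and 55.7, or 73.8 and 77.8 units, a log2 ratio of 0.07, from 80248 and 88619 bases over 1592, the full length of its transcript. Of 1526 genes at its level, 37.5% had a ratio at least as high. Per length of transcript, the level of the maturation factor was thus 1.45 times that of its oxidase in wild type and 1.28 times in TLR4ΔIEC. The adjacent gene beyond Duox2, the polyol enzyme Sord, was lower in the TLR4ΔIEC column (146 and 90.5 units, -0.69).

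The Duox1 side of the cluster was nearly silent. Duoxa1 was covered by 0.439 reads per base in wild type against 0.196 in TLR4ΔIEC, or 0.643 and 0.274 units, a log2 ratio of -0.37. These averages correspond to 377 bases of reads over 859 bases and 159 over 811, or to small multiples of these, so at this depth no direction can be read from them. Duox1 was at 2.25 and 1.70 units (-0.27), and its averages too ran over different lengths. Duox2 was 22.7 times as abundant per length as Duox1 in wild type and 35.7 times in TLR4ΔIEC. Duoxa2 was 115 and 284 times as abundant as Duoxa1. Reads from the end of Duoxa2 and its opposite strand partner could not be told apart if strand was not used, which bears on the Duoxa1 value.

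**Figure D3:**
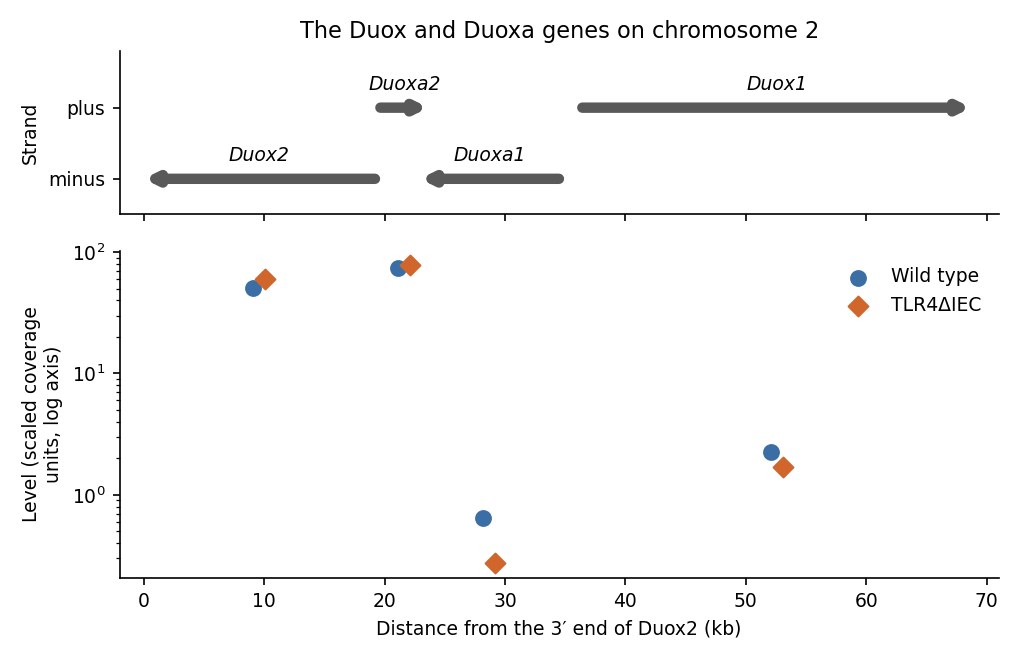
The 4 genes of the Duox cluster, drawn to scale as arrows by strand (above), and their levels in the wild type (circles) and TLR4ΔIEC (diamonds) pooled columns in scaled units on a log axis (below), against distance in kb. The divergent Duox2 and Duoxa2 lie between 51.0 and 77.8 units in both columns, while Duoxa1 and Duox1 lie at or below 2.25 units.

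Ordered by level in wild type, the catalytic genes ran from Duox2 (51.0 units) to Nos2 (15.8), the phagocyte oxidase Cybb (4.56), Duox1 (2.25), Nos3 (0.845), Nox1 (0.829), Nos1 (0.608), Nox3 (0.238) and Nox4 (0.121). In TLR4ΔIEC the first 3 kept their places, at 60.7, 39.4 and 7.22 units, and Nox1 came next at 5.14. The ratio of Duox2 to Nos2 was 3.24 in wild type against 1.54 in TLR4ΔIEC, and that of Duox2 to Nox1 was 61.5 and 11.8. Without values per mouse, it is not known which neighbours in this order differ beyond the spread between animals.

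The genes whose log2 ratio was closest to that of Nos2, among 3177 named genes with a mean within 2-fold of its own, were the beta globins Hbb-b2 and Hbb-bt (both 26.4 and 65.0 units, 1.27), which have the same values and cannot be counted apart, and cyclin D1 (Ccnd1, 26.0 and 65.5 units, 1.30). Closest to Duox2, among 1861, were the coronin Coro2a, the dynactin subunit Actr1a and the interferon regulatory factor Irf1, all at 0.24 to 0.25. Likeness here is that of a single ratio between 2 columns.

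The other genes that these enzymes depend on were counted over 11 lists of 134 symbols, of which 94 reached 5 units, with 1 higher and 2 lower by 2-fold or more. Over all genes kept, 1.29% were higher and 2.79% lower by as much, and 52.7% had a ratio above 0. The counts above and below 0 in these lists are to be read beside that share. Phagocyte NADPH oxidase genes, which serve neutrophils and macrophages, were the list with the highest median log2 ratio (0.58), with 4 of 4 measured above 0 and none at 2-fold. Rac2 was at 7.07 and 11.1 (0.59), Cybb at 4.56 and 7.22 (0.56) and Ncf1 at 7.05 and 8.04 (0.17). The haem peroxidases, which would use hydrogen peroxide outside cells, were near 0, with a sum of 0.572 and 0.597 units over 4 genes.

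Genes that supply Nos2 with arginine and cofactor did not follow it. Of 15 measured genes of arginine supply and use, 7 were above 0 and 8 below, with a median of -0.04. Cps1, which makes carbamoyl phosphate for citrulline synthesis, was the only measured gene of the 11 lists at least 2-fold higher (51.5 and 106 units, 1.03), and Otc, the next enzyme of that path, was at 49.9 and 77.4 units (0.62). The arginine transporter Slc7a1 was at 5.17 and 8.91 (0.68) and Ddah1, which breaks down an inhibitor of nitric oxide synthases, at 10.9 and 18.3 (0.70). Arg2, which competes for arginine, was at 77.2 and 52.3 units (-0.55). Of 8 genes of tetrahydrobiopterin synthesis, 6 were below 0 (median -0.29). Gchfr, the feedback regulator of the first enzyme Gch1, was at least 2-fold lower (27.8 and 12.0 units, -1.14), while Gch1 itself was at 4.78 and 5.63 (0.20), Spr at 133 and 93.8 (-0.50) and Qdpr at 121 and 86.7 (-0.48). Of the list of other synthases and nitric oxide sensing, 4 were measured (median -0.37), with the Nos interacting proteins Nosip at -0.59 and Nostrin at -0.39.

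Genes that remove hydrogen peroxide and superoxide were split, with 13 of 21 measured above 0, 8 below, none at 2-fold and a median of 0.02. Prdx4 of the secretory pathway (21.5 and 38.1 units, 0.79) and thioredoxin (Txn1, 188 and 317, 0.75) were highest, and Gpx4, which protects membrane lipids (190.0 and 103, -0.87), and Prdx5 (329 and 225, -0.54) were lowest. The gut glutathione peroxidase Gpx2 was abundant and near level (799.6 and 884 units, 0.14). Glutathione synthesis and NRF2 target genes had 8 of 14 above 0 and a median of 0.15, with the quinone reductase Nqo1 at 18.0 and 36.9 units (0.99 on the log2(units + 1) scale), Gsr and Mgst1 at 0.61, and the glutamate-cysteine ligase subunit Gclm at -0.71.

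The pathways known to induce these enzymes gave mixed values. Of 8 measured genes of the interferon gamma arm, 4 were above 0 and 4 below (median 0.11). The transcription factor Irf8 (29.2 and 50.6 units, 0.77) was higher, and the receptor chain Ifngr2 (158 and 102, -0.63) and the inhibitor Socs1 (-0.45) lower, while the cytokine Ifng itself was barely covered (0.194 and 0.719 units). Of 7 measured genes of the IL-17, IL-22 and STAT3 arm, 5 were below 0 (median -0.27). The IL-22 receptor chain Il22ra1, through which IL-22 reaches epithelial cells, was at least 2-fold lower (43.2 and 20.6 units, -1.04), with Socs3 at -0.47 and Il10rb at -0.43, and Nfkbiz was higher (0.79). Il17a and Il22 were under 1 unit in both columns. Of 9 measured NF-κB and innate sensing genes, 6 were below 0 (median -0.18), with Relb at -0.85, Nfkb2 at -0.51, Ticam1 at -0.33 and Nod1 at 0.43. The targeted gene, Tlr4, was covered by 1.98 reads per base in wild type against 1.60 in TLR4ΔIEC (2.90 and 2.24 units, -0.27). This is an average for its RefSeq entry in whole ileum, over a length that was not recovered, and it checks the genotype only weakly.

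**Figure D4:**
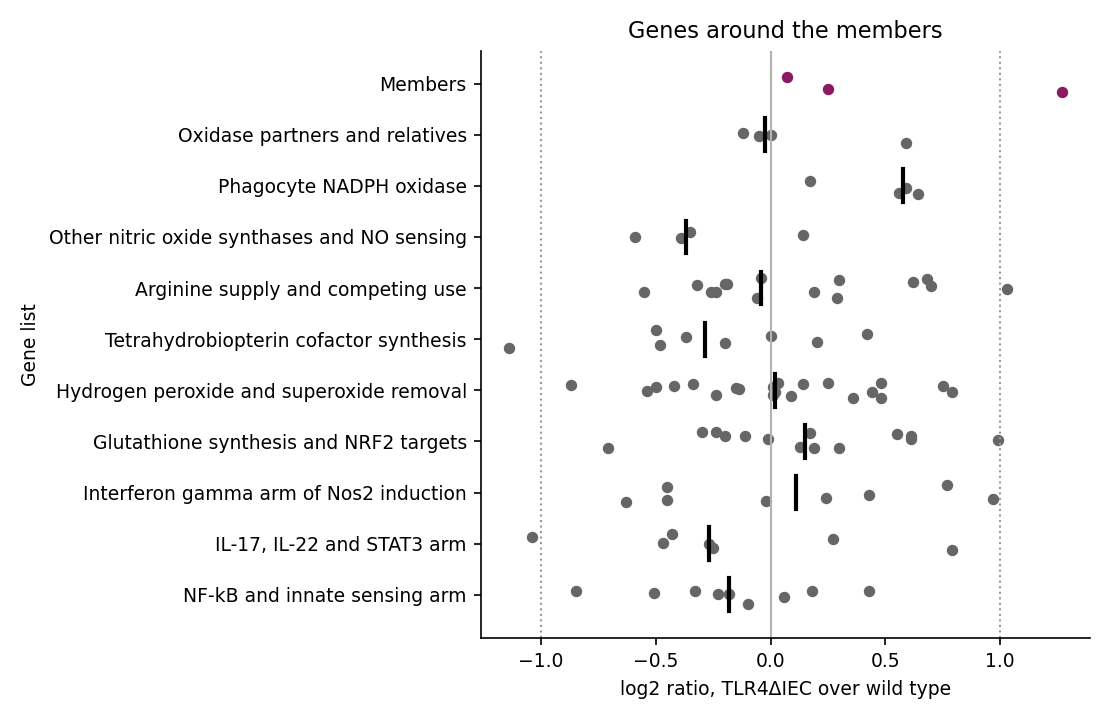
Log2 ratio of TLR4ΔIEC over wild type (horizontal axis) for each gene averaging at least 5 units in the 10 lists with such genes, with the 3 members that reached that level on top. Points are genes, black bars are list medians, and dotted lines mark 2-fold. Nos2 (1.27) lies to the right of every point of the lists, and the list medians lie between -0.37 and 0.58.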

How the data were processed

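Ileal RNA from 3 mice of each genotype was depleted of ribosomal RNA and made into strand-specific Ion Torrent libraries, per the labels' protocols. TopHat2 2.0.10, Bowtie2 2.1.0 and build mm10 stand in the submitters' processing notes, without roles. The deposited signal is average coverage per RefSeq entry, 1 column per genotype, per the file headers; no source used here names the tool that made it or whether it used strand. The column sums were 699800 and 698473. Read length is not given, so no counting interval was formed.

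The 22001 entries in both columns were put on 1 scale with a median-of-ratios factor of 1.05 and a mean total of 1000000; of several entries of a symbol, the highest was used. Log2 ratios of the deposited coverage so scaled used a pseudocount of 1, with a filter at a mean of 5 units. Read bases and lengths were recovered as the smallest length of at least 50 bases that gives a whole number of bases, which can be a divisor of the true length. A limma test had been planned for values per mouse; pooled columns do not allow it. Named genes were the members, their direct partners and adjacent genes, up to 4 list genes with the largest absolute ratio, and the 3 genes nearest in ratio to Nos2 and Duox2; others are named for their role, with their values known. Some list genes that the rule takes are counted but not reported here by name. The members and lists were chosen with earlier results of these data known. Gene positions were taken from GENCODE vM21, which is on GRCm38 like mm10. The steps were tested on simulated data. Python 3.11.15, numpy 2.4.6 and pandas 2.3.3 were used.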

Additional observations from a re-analysis of the deposited data

How the results depend on the processing

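Across 12 alternatives, Nos2 stayed at least 2-fold higher (log2 ratio 1.10 to 1.37), Duox2 stayed at 0.23 to 0.35 and Duoxa2 at 0.07 to 0.18. Nox1 ranged from 0.80, with a pseudocount of 5 and so under 2-fold, to 2.50 with a pseudocount of 0.1; spreading its wild type reads over the longer length, an alternative chosen after seeing the data, gave 1.90. Duoxa1 ranged from -0.99 to -0.10. Neither Nox1 nor Duoxa1 has a value among genes of the same recovered length. Against 115 genes higher and 248 lower by 2-fold or more, a pseudocount of 5 gave 65 and 146, filters at 1 and 20 units gave 206 and 380, and 58 and 130, and no filter gave 222 and 395. With a filter at 1 unit or with none, 2 members passed it and were 2-fold higher, and with none all 5 passed. The median of the oxidase partners, -0.03, turned to 0.04 with scaling to the total or no scaling, 0.06 with quantile normalization and 0.08 with the total without the 50 highest genes. That of arginine supply, -0.04, turned to 0.03, 0.02 and 0.06 with scaling to the total, no scaling and the total without the 50 highest genes, and to 0.07 among genes of the same recovered length. With no filter, the NF-κB median, -0.18, turned to 0.04, and the medians of the IL-17, IL-22 and STAT3 arm and of other synthases, -0.27 and -0.37, shrank to -0.04 and -0.06; the former was -0.48 among genes of the same recovered length. The interferon gamma median, 0.11, was 0.24 with a filter at 20 units or none. The cause was not tested. The median of all genes kept was 0.12 with the total without the 50 highest genes, against 0.03. Leaving out a mouse was not run, since no value per mouse was used. No paired analysis was possible because each genotype is a single pooled column. Depth limits what can be said of Nox1, Duoxa1 and Duox1.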
